A study of Rattus norvegicus with 8 samples.

Results

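The 10 genes described here encode 8 proteases of the ADAMTS family (Adamts1, Adamts4, Adamts5, Adamts7, Adamts9, Adamts10, Adamts12 and Adamts15) and a pair of ADAMTS-like proteins (Adamtsl2 and Adamtsl4). They were chosen by name and matched to the gene names that accompany the deposited counts, and 10 of 10 were among the 32623 genes listed. Of these, 9 had enough counts to be tested, among 11682 genes in all, and Adamtsl2 did not. RNA was sequenced from the outflow veins of arteriovenous fistulas (AVFs) in 8 Sprague Dawley rats, 21 days after the epigastric vein had been joined to the femoral artery. The BAPN group held 4 rats (3 females and 1 male) whose vein was wrapped with a bilayer nanofiber scaffold loaded with β-aminopropionitrile (BAPN), which irreversibly blocks lysyl oxidases, the enzymes that join collagen and elastin chains by crosslinks. The Vehicle group held 4 rats (2 females and 2 males) with the same scaffold without BAPN. All 8 rats therefore carried both a fistula and a scaffold, there was no vein without surgery or without a scaffold, and each library came from a whole vein segment of a separate rat. The question was which RNAs of the family differed between a vein under local lysyl oxidase inhibition and a control vein.

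ADAMTS proteins are secreted zinc-dependent proteases that carry thrombospondin type 1 repeats, through which they bind the extracellular matrix. They are made as inactive precursors that proprotein convertases cut, are held in check mainly by TIMP-3, and are cleared from the matrix by the endocytic receptor LRP1. Some members cut the large proteoglycans versican and aggrecan and thereby loosen the hyaluronan-rich matrix of the vessel wall, others cut cartilage oligomeric matrix protein (COMP) and thrombospondin-1, and still others sit on fibrillin microfibrils. ADAMTS-like proteins share the repeats but lack the protease domain. In blood vessels, versican cleavage accompanies remodeling, and Adamts7 is known for its role in smooth muscle migration and neointima formation.

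Promoter windows of 3 members are printed so that the bases upstream of a called member can be read beside those of members that were not called. RefSeq windows of assembly GRCr8 were at hand for 8 of the 10 members, without Adamts5 and Adamts15, and the 250 bases before each gene's start were used. Each is written 5′ to 3′ on the gene's strand, and capitals mark matches to the GC box (GGGCGG), bound by Sp1-type factors, and to the Smad box (CAGAC), bound by the effectors of TGF-β. Adamts10 was lower in the BAPN group without overlap, Adamts12 had the lowest log2 fold change of the members, and Adamts4 had values that overlapped widely. The windows lie at chr7:15033685-15033934, chr2:61759737-61759986 and chr13:86202761-86203010, each on the + strand.
Adamts10: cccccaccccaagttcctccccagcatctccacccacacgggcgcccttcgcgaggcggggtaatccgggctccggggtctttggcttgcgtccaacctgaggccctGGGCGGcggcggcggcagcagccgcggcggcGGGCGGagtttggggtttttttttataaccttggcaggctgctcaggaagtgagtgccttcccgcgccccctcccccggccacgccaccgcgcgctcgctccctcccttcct
Adamts12: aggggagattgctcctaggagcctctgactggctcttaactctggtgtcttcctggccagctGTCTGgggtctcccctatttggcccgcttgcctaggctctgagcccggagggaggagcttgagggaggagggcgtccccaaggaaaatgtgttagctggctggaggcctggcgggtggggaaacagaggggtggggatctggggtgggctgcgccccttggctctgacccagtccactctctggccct
Adamts4: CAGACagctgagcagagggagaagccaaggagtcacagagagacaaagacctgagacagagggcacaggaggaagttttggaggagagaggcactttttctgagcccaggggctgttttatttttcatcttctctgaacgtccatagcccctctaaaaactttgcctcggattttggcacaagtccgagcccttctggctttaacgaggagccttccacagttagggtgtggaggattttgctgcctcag
The Adamts10 window held GC boxes 143 and 112 bases before the start, while the Adamts12 and Adamts4 windows held no GC box and 1 Smad box each, 188 and 250 bases before the start. GC boxes were also present in the windows of Adamts1, Adamts9 and Adamtsl4, which were not called, and of Adamtsl2, which was not tested. Both strands were searched. Over the 8 members with a window, 5 held a GC box, against 32.4% of 27457 RefSeq promoter windows of the same length. These 5 windows were also rich in G and C bases (62.4% to 73.2%), against a median of 52.0% over all windows. The Smad box was present in 3 of 8, against 42.8% of all windows, and the letters of the TATA box (TATAAA) in 4 of 8, against 13.1%. The TATAAA matches of Adamts1 and Adamtsl2 lay on the gene's strand, 70 and 30 bases before the start. Those of Adamts7 and Adamts10 lay on the opposite strand, 18 and 91 bases before the start. The TEAD site (CATTCC) was found in 1 of 8, against 11.8%. The AP-1 site (TGACTCA) and the NF-kappaB site (GGGAATTCC) were found in 0 of 8, against 3.98% and 0.182% of all windows, and the CArG box in 0 of 8, against 1.5%. A match is only a match of letters and was not tested as a binding site.

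The libraries differed in depth along the groups. The BAPN libraries held 45039451 to 52241007 counts and the Vehicle libraries 19548203 to 22442050, so a difference that follows depth or library preparation cannot be told apart from the treatment. Levels are therefore given as CPM, counts scaled to a common library size after TMM normalization. Because CPM is not corrected for transcript length, levels were compared between rats and not between genes. Differences are log2 fold changes of BAPN against Vehicle from edgeR, with standard errors (SE) from limma-voom, and the FDR is the edgeR p-value adjusted by Benjamini-Hochberg over all 11682 tested genes. A gene was called when its FDR was below 0.05. The veins were sequenced as bulk tissue, in which fewer cells of a type and less RNA per cell cannot be told apart.

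Of the 9 tested members, 2 fell in the BAPN group and 0 rose. The 2 were Adamts10 (ENSRNOG00000008857), a protease that associates with fibrillin microfibrils, and Adamts5 (ENSRNOG00000057794), a major aggrecanase. They make up 22.2% of the tested members, beside 16.8% of all tested genes called in either direction, 9.25% called as lower and 7.5% called as higher. With so few genes tested, this share is near the background and is not a result about the family as a whole. DESeq2 called 4 of the 9, adding Adamts12 and Adamtsl4, beside 27.4% of all genes. At an unadjusted edgeR p below 0.05, 5 of the 9 were lower, beside 35.8% of all genes in either direction. The fitted log2 fold change was below 0 for 9 of 9 members, and for 48.4% of all tested genes. The median over the tested members was −0.72, and over all tested genes it was 0.02. The groups did not overlap for 1 member, Adamts10, while 24.7% of all tested genes had no overlap in either direction and 11.9% had none with the BAPN rats lower.

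**Figure D1:**
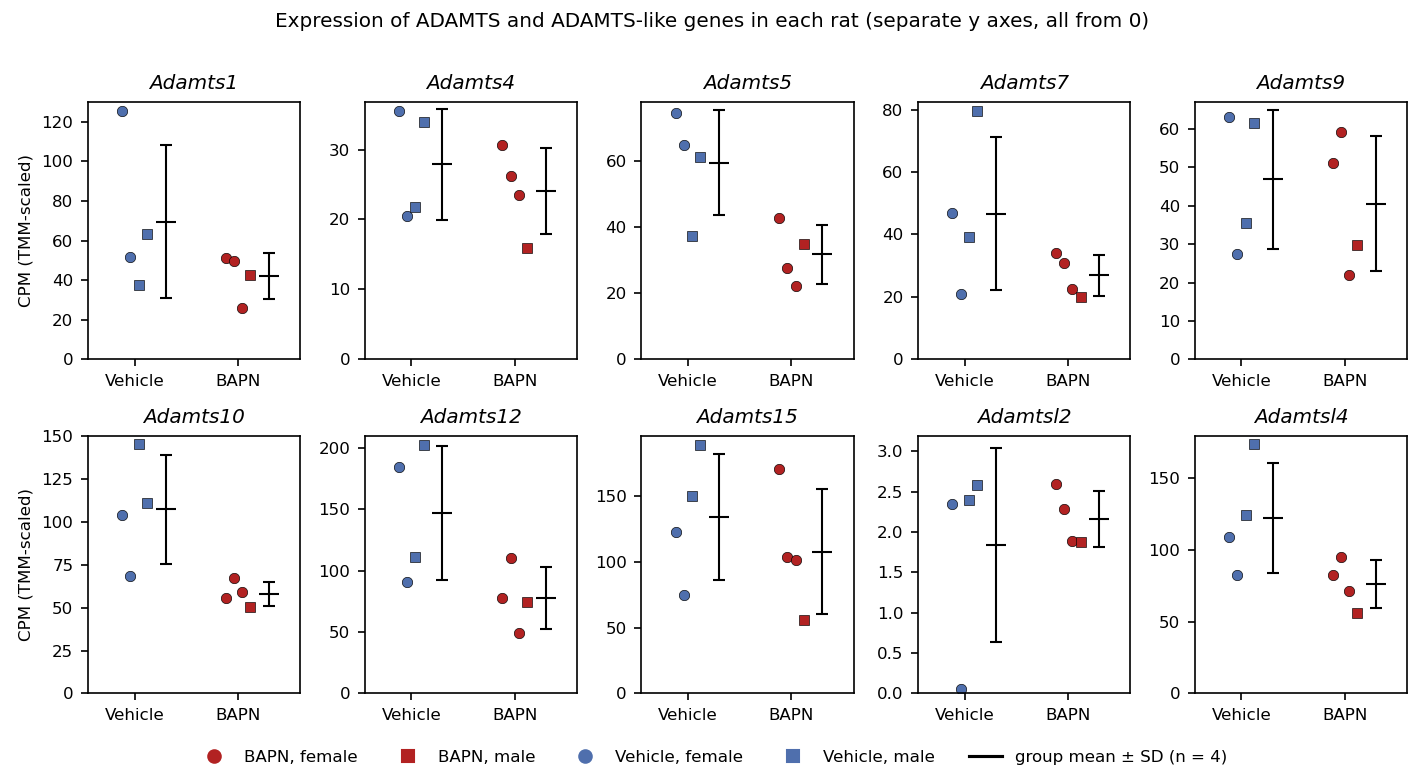
Each panel plots 1 member, with the treatment group on the x axis and CPM after TMM scaling on the y axis, which starts at 0 and has its own scale. Points are rats (circles female, squares male), and the bars beside them give the group mean ± SD (n = 4). For Adamts10 the highest BAPN rat (67.1 CPM) lies under the lowest Vehicle rat (68.6 CPM), and for every other member the groups overlap.

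The first group of members consists of the hyalectanases, which cut versican and aggrecan. Adamts5 was measured at 42.8, 27.7, 22.1 and 34.9 CPM in BAPN 1 to 4 and at 74.7, 65.1, 37.5 and 61.5 CPM in Vehicle 1 to 4. 3 of the 4 Vehicle rats exceeded every BAPN rat, and the overlap came from Vehicle 3, which lay between the 2 highest BAPN rats. Mean levels were 31.9 ± 8.99 CPM in BAPN rats against 59.7 ± 15.8 CPM in Vehicle rats (SD, n = 4 each). By edgeR, the gene had a log2 fold change of −0.90 (SE 0.25, edgeR FDR = 0.0387), a 1.87-fold lower level. The DESeq2 FDR was 0.00555, and an exact two-sided permutation test over the 70 arrangements of the rats gave p = 0.0571. The call did not withstand the loss of most single rats. Without BAPN 2, 3 or 4 the edgeR FDR was 0.0801, 0.0944 or 0.0688, and without Vehicle 1, 2 or 4 it was 0.104, 0.0613 or 0.0705. Without BAPN 1 or Vehicle 3 it was 0.0356 or 0.0301. In those 8 fits the log2 fold change stayed between −1.08 and −0.76. With sex as a covariate it was −0.93 (edgeR FDR = 0.0619).

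Adamts1, which cuts versican and aggrecan and is also known as an inhibitor of angiogenesis, did not pass the test. Its levels were 51.1, 49.4, 25.8 and 42.4 CPM in the BAPN rats and 125, 51.8, 37.7 and 63.5 CPM in the Vehicle rats. Vehicle 1 stood far above the other 7 rats, Vehicle 2 and Vehicle 4 also exceeded every BAPN rat, Vehicle 2 by a narrow margin, and Vehicle 3 lay inside the BAPN range. The means were 42.2 ± 11.6 and 69.6 ± 38.6 CPM (SD, n = 4 each). By edgeR, the gene had a log2 fold change of −0.72 (SE 0.35, edgeR FDR = 0.179, DESeq2 FDR = 0.12), and it was −0.27 without Vehicle 1. Adamts1 and Adamts5 are neighboring protein-coding genes on the RefSeq map of the rat. Across the rats they did not rank alike, since Vehicle 3 held the lowest Vehicle value of each gene but Vehicle 2 was high for Adamts5 and near the BAPN rats for Adamts1.

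Adamts4, the other classical aggrecanase, did not pass the test. It was measured at 30.6, 26.2, 23.5 and 15.9 CPM in the BAPN group and at 35.6, 20.5, 21.7 and 34.0 CPM in the Vehicle group. A pair of Vehicle rats lay above all BAPN rats and the other two lay inside the BAPN range. The log2 fold change was −0.21 (SE 0.25, edgeR FDR = 0.551), smaller than its standard error, and the group means were 24.1 ± 6.17 and 27.9 ± 7.94 CPM (SD, n = 4 each). Leaving out 1 rat moved the log2 fold change between −0.35 (without BAPN 1) and −0.07 (without BAPN 4).

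Adamts9, a versicanase that also acts at the cell surface, was measured at 51.1, 59.3, 22.0 and 29.7 CPM in the BAPN rats and at 63.2, 27.5, 35.5 and 61.5 CPM in the Vehicle rats. Both groups split into a high and a low pair of rats, so that the spread within a group was larger than the difference between groups. The means were 40.5 ± 17.6 and 46.9 ± 18.1 CPM (SD, n = 4 each), with a log2 fold change of −0.21 (SE 0.37, edgeR FDR = 0.697). Leaving out 1 rat at a time moved it between −0.46 and −0.01.

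Adamts15, a further versicanase, had levels of 170, 104, 102 and 55.6 CPM under BAPN, against 123, 74.9, 150 and 189 CPM under Vehicle. The groups overlapped over most of their range. The only BAPN male (BAPN 4) was the lowest rat of all, and the Vehicle males (Vehicle 3 and 4) were above both Vehicle females. The means were 108 ± 47.2 and 134 ± 48.0 CPM (SD, n = 4 each), and the log2 fold change was −0.32 (SE 0.36, edgeR FDR = 0.536). Among females alone it was 0.34 (edgeR FDR = 0.51), with the sign turned, and leaving out 1 rat moved it between −0.63 (without BAPN 1) and −0.11 (without BAPN 4 or Vehicle 4).

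The second group contains Adamts7 and Adamts12, sister proteases that cut COMP and carry a mucin-like stretch with glycosaminoglycan chains. Neither passed the test. Adamts12 had levels of 77.7, 110, 48.8 and 74.3 CPM in the BAPN rats and 184, 90.4, 111 and 202 CPM in the Vehicle rats. Only BAPN 2 reached into the Vehicle range, where it exceeded Vehicle 2 and lay just under Vehicle 3. With means of 77.7 ± 25.1 and 147 ± 54.5 CPM (SD, n = 4 each), the log2 fold change was −0.92, the lowest of the 9 tested members (SE 0.31, edgeR FDR = 0.0649). The exact two-sided permutation test gave p = 0.0571, and the DESeq2 FDR was 0.017. Without Vehicle 2 the log2 fold change was −1.09 and the edgeR FDR 0.0338, and over all 8 fits with a rat left out the log2 fold change lay between −1.14 and −0.73.

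Adamts7 was measured at 34.0, 31.0, 22.6 and 19.8 CPM in the BAPN group and at 46.8, 21.0, 39.2 and 79.6 CPM in the Vehicle group. Vehicle 1, 3 and 4 exceeded all BAPN rats, but Vehicle 2 lay near the lowest of them. The means were 26.8 ± 6.71 and 46.6 ± 24.5 CPM (SD, n = 4 each), and the log2 fold change was −0.80 (SE 0.35, edgeR FDR = 0.139, DESeq2 FDR = 0.0805). 1 Vehicle rat at each end moved this value. Without Vehicle 2 it was −1.04 (edgeR FDR = 0.0353), and without Vehicle 4 it was −0.41 (edgeR FDR = 0.356).

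The third group comprises the members tied to fibrillin microfibrils. Adamts10 binds fibrillin-1, and loss of its human counterpart causes Weill-Marchesani syndrome. It was measured at 55.7, 67.1, 59.3 and 50.5 CPM in the BAPN rats and at 104, 68.6, 145 and 111 CPM in the Vehicle rats. The BAPN rats lay close together and below every Vehicle rat, although Vehicle 2 was only slightly above the highest of them. The means were 58.1 ± 6.98 and 107 ± 31.5 CPM (SD, n = 4 each). With a log2 fold change of −0.88 (SE 0.21, edgeR FDR = 0.0245), its level was 1.85-fold lower, and the DESeq2 FDR was 0.000975. The exact two-sided permutation test gave p = 0.0286, and no arrangement of the 8 rats can give a smaller one. The edgeR FDR was 0.0511, 0.0614, 0.0599 and 0.0612 without BAPN 1, BAPN 3, BAPN 4 and Vehicle 1, and between 0.00824 and 0.048 without any of the others. The log2 fold change lay between −1.05 and −0.70 in these fits, and with sex as a covariate it was −0.80 (edgeR FDR = 0.0619). Among females alone it was −0.51 (edgeR FDR = 0.183).

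Adamtsl4, an ADAMTS-like protein that binds fibrillin-1 and whose human counterpart is linked to lens dislocation, had levels of 82.3, 94.6, 71.6 and 55.9 CPM under BAPN, against 109, 82.6, 124 and 174 CPM under Vehicle. Vehicle 2 lay level with BAPN 1 and under BAPN 2, and the other Vehicle rats exceeded all BAPN rats. The means were 76.1 ± 16.4 and 122 ± 38.2 CPM (SD, n = 4 each), and the log2 fold change was −0.68 (SE 0.23, edgeR FDR = 0.07). It did not pass the edgeR test, while the DESeq2 FDR was 0.027, and an exact two-sided permutation test gave p = 0.0571. Without Vehicle 2 the log2 fold change was −0.83 (edgeR FDR = 0.0317), and among females alone it was −0.21.

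Adamtsl2, which binds fibrillin-1 and latent TGF-β binding protein and is mutated in geleophysic dysplasia in humans, was too low to test, with a base mean of 63.6 under the minimum of 100. It was counted 125, 116, 82 and 90 times in BAPN 1 to 4 and 50, 1, 57 and 54 times in Vehicle 1 to 4, which correspond to 2.59, 2.29, 1.89 and 1.88 CPM and to 2.34, 0.0494, 2.40 and 2.58 CPM. The 7 rats other than Vehicle 2 lay in a narrow common range. The single read in Vehicle 2 is under the floor of 3 counts, which corresponds to 0.148 CPM in that library.

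**Figure D2:**
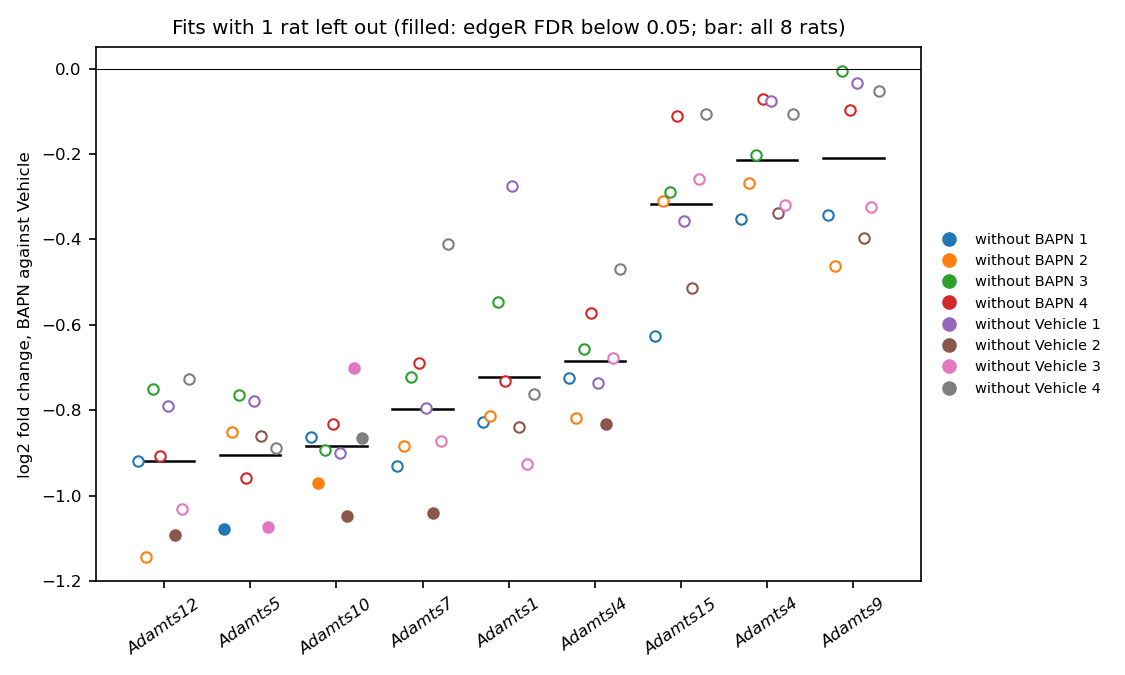
The y axis gives the edgeR log2 fold change of BAPN against Vehicle for each tested member on the x axis, with each circle a fit without 1 rat (color), filled where the FDR was below 0.05, and the bar the fit of all 8 rats. No circle lies above 0, Adamts10 and Adamts5 were called in 4 and 2 of 8 fits, and the fit without Vehicle 2 adds Adamts12, Adamts7 and Adamtsl4 and loses Adamts5.

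Within each group, a few rats were at the low or the high end for most members. Vehicle 2 was the lowest Vehicle rat for 7 of the 9 tested members and Vehicle 3 for the other two, while Vehicle 2 was the lowest for 29% of all tested genes. Vehicle 1 and Vehicle 4 were each the highest Vehicle rat for 4 members, against 16.5% and 31.3% of all tested genes. In the BAPN group, BAPN 3 was the lowest rat for 4 members and BAPN 4 for 5, against 28.6% and 25.8% of all tested genes, and the highest was BAPN 1 for 5 and BAPN 2 for 4, against 21.2% and 25% of all. The members come from the same 8 libraries and are not replicates of each other, and leaving out a rat moved several of them at once. The count of called members was 0 without BAPN 3, BAPN 4 or Vehicle 1, 1 without BAPN 1, BAPN 2 or Vehicle 4, 2 without Vehicle 3 and 4 without Vehicle 2.

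Because 3 BAPN rats and 2 Vehicle rats were female, the difference between the sexes in the response was tested as an interaction. In edgeR, 0 of 9 members and 0 of 11682 tested genes had an interaction FDR below 0.05, with 3 members and 1442 genes (12.3%) at an unadjusted p below 0.05. DESeq2 called 1 member, Adamts15, and 445 genes (3.81%). The Adamts15 interaction, the log2 fold change in males minus that in females, was −1.95 in edgeR (edgeR FDR = 0.257) and −1.94 in DESeq2 (DESeq2 FDR = 0.0186). For Adamtsl4 it was −1.20 (edgeR FDR = 0.269, DESeq2 FDR = 0.0756), and for Adamts10 −0.84 (edgeR FDR = 0.398). All of these values rest on the only BAPN male. With sex as a covariate, 0 of the 9 members were called, against 930 of all tested genes.

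The remaining genes with an ADAMTS symbol numbered 13, of which 8 were tested. Of these 8, only Adamts2 (ENSRNOG00000061484) fell, and 0 rose, so that 12.5% were called, beside 16.8% of all tested genes in either direction and 9.25% as lower. Adamts2 is the procollagen N-proteinase, which trims the amino-terminal propeptide from fibrillar procollagens before fibrils form. Its levels were 249, 240, 169 and 191 CPM in the BAPN rats and 485, 290, 472 and 553 CPM in the Vehicle rats. Every Vehicle rat exceeded every BAPN rat, and Vehicle 2 was again the lowest of its group. The means were 212 ± 38.8 and 450 ± 112 CPM (SD, n = 4 each), and the log2 fold change was −1.08 (SE 0.22, edgeR FDR = 0.0169, DESeq2 FDR = 4.18e-05), a 2.12-fold lower level. The exact two-sided permutation test gave p = 0.0286. With sex as a covariate the edgeR FDR was 0.0423, and of the 8 fits without a rat only that without Vehicle 1 lost the call (edgeR FDR = 0.0527). Over the 8 tested genes the median log2 fold change was −0.52, and 7 were below 0, as were 48.4% of all tested genes. The highest value was 0.27 (SE 0.30, edgeR FDR = 0.501), for Adamts8, which neighbors Adamts15 on the RefSeq map. Without BAPN 4 it was 0.12. Adamts17, a microfibril-linked protease whose human counterpart is also linked to a Weill-Marchesani-like syndrome, had −0.92 with a wide error (SE 0.50, edgeR FDR = 0.216), and −0.45 without Vehicle 4. Adamts14, a procollagen N-proteinase like Adamts2, had −0.17 (SE 0.17, edgeR FDR = 0.489), and −0.02 without Vehicle 4.

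**Figure D3:**
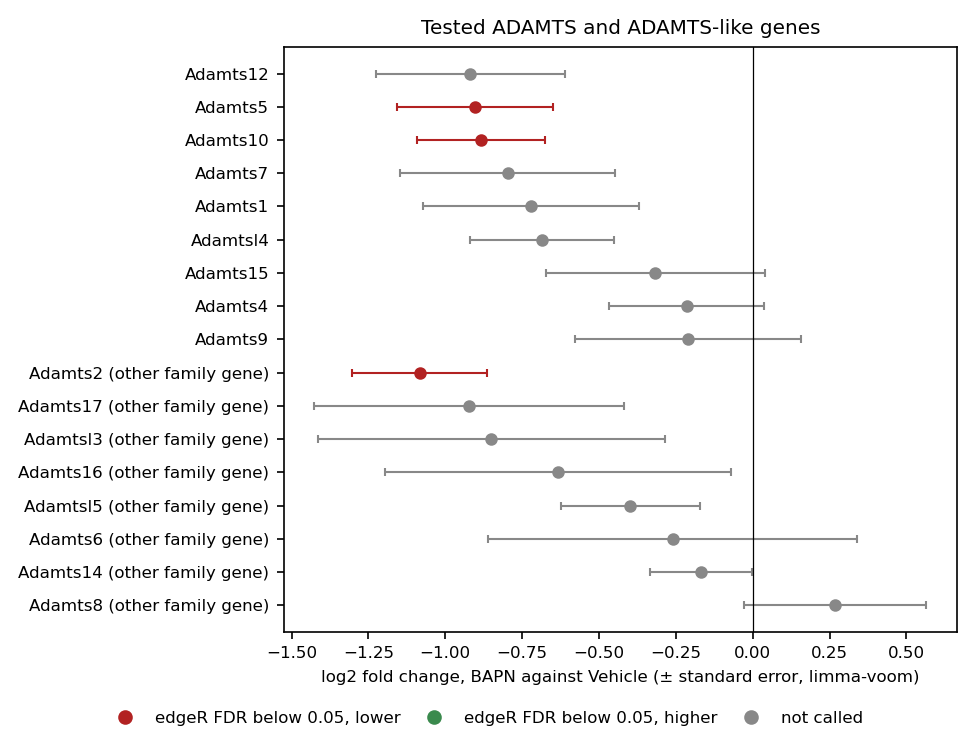
The x axis gives the edgeR log2 fold change of BAPN against Vehicle with limma-voom standard errors as bars, and each row is a tested ADAMTS or ADAMTS-like gene, the 9 members above the 8 other genes. Adamts5, Adamts10 and Adamts2 are the genes with an FDR below 0.05, and Adamts8 alone has a point above 0.

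The genes that act with the family were taken from 5 hand-written lists with 41 names in all, of which 35 were tested. Of the 35, 4 fell and 1 rose (14.3%, beside 16.8% of all tested genes), and 30 were not called. The median log2 fold change was −0.58, and DESeq2 called 11, beside 27.4% of all tested genes.

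Among 13 tested substrates, 1 fell and 1 rose. Vwf, von Willebrand factor, is cut by Adamts13 and serves as an endothelial marker. Its levels were 102, 81.2, 85.4 and 58.5 CPM under BAPN, against 768, 269, 106 and 161 CPM under Vehicle. This was a log2 fold change of −1.99 (SE 0.50, edgeR FDR = 0.0389). The Vwf call did not hold in limma-voom (log2 fold change −1.61, FDR = 0.0581). All BAPN rats were below all Vehicle rats, but by a narrow margin at Vehicle 3, and Vehicle 1 stood far above the rest. Without Vehicle 1 the log2 fold change was −1.13 (edgeR FDR = 0.067), and without BAPN 1, 2, 3 or 4 the edgeR FDR was 0.0639, 0.0741, 0.0966 or 0.0907. Tfpi2, a Kunitz-type inhibitor of serine proteases that Adamts1 can cut, was higher, at 16.8, 17.6, 18.1 and 10.4 CPM against 9.22, 8.55, 6.82 and 7.55 CPM. Every BAPN rat exceeded every Vehicle rat, with BAPN 4 the closest to them. Its log2 fold change was 0.97 (SE 0.26, edgeR FDR = 0.0198), and the edgeR FDR was 0.0524 without BAPN 3 and 0.051 without Vehicle 1. Adamts13 itself had 0 counts in every library, where the floor is 3 counts per library.

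Vcan, which encodes versican, the main substrate of the hyalectanases in the vessel wall, was not called. Its levels were 458, 465, 259 and 202 CPM under BAPN, against 211, 139, 168 and 484 CPM under Vehicle. The groups covered nearly the same range, since Vehicle 4 was the highest of all rats, and the log2 fold change was 0.46 (SE 0.43, edgeR FDR = 0.448). Leaving out 1 rat moved it between 0.26 (without Vehicle 2) and 1.00 (without Vehicle 4, edgeR FDR = 0.0728), and among females alone it was 1.17. Thbs1, encoding thrombospondin-1, had 541, 712, 216 and 385 CPM under BAPN, against 365, 253, 184 and 2040 CPM under Vehicle. The log2 fold change of −0.62 (SE 0.73, edgeR FDR = 0.569) came from Vehicle 4 alone, without which it was 0.80.

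Of the 5 tested genes for inhibitors and clearance, 1 fell and 0 rose, while DESeq2 called 4, among them Timp1, another tissue inhibitor, as higher (log2 fold change 0.70, edgeR FDR = 0.0839, DESeq2 FDR = 0.0385). Timp2, a further tissue inhibitor, was called by DESeq2 as lower, without overlap between the groups (log2 fold change −0.52, edgeR FDR = 0.0746, DESeq2 FDR = 0.0144). Papln encodes papilin, an extracellular protein with ADAMTS-like repeats, whose fly counterpart inhibits procollagen N-proteinase. It was measured at 4.67, 4.28, 1.64 and 1.88 CPM in the BAPN group and at 19.4, 5.63, 12.8 and 10.2 CPM in the Vehicle group. All BAPN rats were below all Vehicle rats, with Vehicle 2 the nearest. Papln had a log2 fold change of −1.94 (SE 0.47, edgeR FDR = 0.0254), and without BAPN 3, BAPN 4, Vehicle 1 or Vehicle 3 the edgeR FDR was 0.0641, 0.0599, 0.0712 or 0.0519. Timp3, the main tissue inhibitor of ADAMTS proteases, did not pass the edgeR test (log2 fold change −0.62, SE 0.19, edgeR FDR = 0.055), although its levels of 185, 228, 163 and 198 CPM lay below the Vehicle levels of 416, 249, 251 and 273 CPM. DESeq2 gave a Timp3 FDR of 0.0126, and without Vehicle 2 the edgeR FDR was 0.0466. Lrp1, the clearance receptor, had a log2 fold change of −0.53 (SE 0.24, edgeR FDR = 0.145).

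None of the 5 tested genes for maturation and secretion (convertases and the enzymes that glycosylate thrombospondin repeats) was called by edgeR, with 1 at an unadjusted p below 0.05 and 1 called by DESeq2. Of the 8 tested microfibril partners, 2 fell (25%, beside 9.25% of all tested genes called as lower), 0 rose, and all 8 fitted values were below 0, as were 48.4% of all tested genes. Fbln1 encodes fibulin-1, a matrix glycoprotein known as a cofactor of Adamts1. It was measured at 203, 123, 115 and 125 CPM in the BAPN group and at 360, 207, 336 and 305 CPM in the Vehicle group. The groups did not overlap, although BAPN 1 nearly reached Vehicle 2. Its log2 fold change was −1.09 (SE 0.23, edgeR FDR = 0.0194), and the edgeR FDR was 0.0557 without BAPN 3 and 0.0583 without Vehicle 1. Mfap2, a microfibril-associated glycoprotein, had 28.5, 42.4, 21.5 and 31.8 CPM under BAPN, against 54.9, 37.8, 85.4 and 101 CPM under Vehicle. BAPN 2 overlapped with Vehicle 2. The log2 fold change was −1.17 (SE 0.31, edgeR FDR = 0.0353), and it was called in 2 of the 8 fits without a rat, those without BAPN 2 or Vehicle 2 (edgeR FDR between 0.064 and 0.0935 in the others). With sex as a covariate Mfap2 had −0.92 (edgeR FDR = 0.0787). Fbn1, which encodes fibrillin-1, to which Adamts10, Adamtsl2 and Adamtsl4 bind, had a log2 fold change of −0.70 (SE 0.34, edgeR FDR = 0.173) and was not called. Its values spanned 863 to 1631 CPM in BAPN rats and 1182 to 2984 CPM in Vehicle rats, and without Vehicle 4, the highest of them, the Fbn1 log2 fold change was −0.41. In the hyaluronan aggregate list, 0 of 4 tested genes were called by edgeR or DESeq2, with 0 at an unadjusted p below 0.05.

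**Figure D4:**
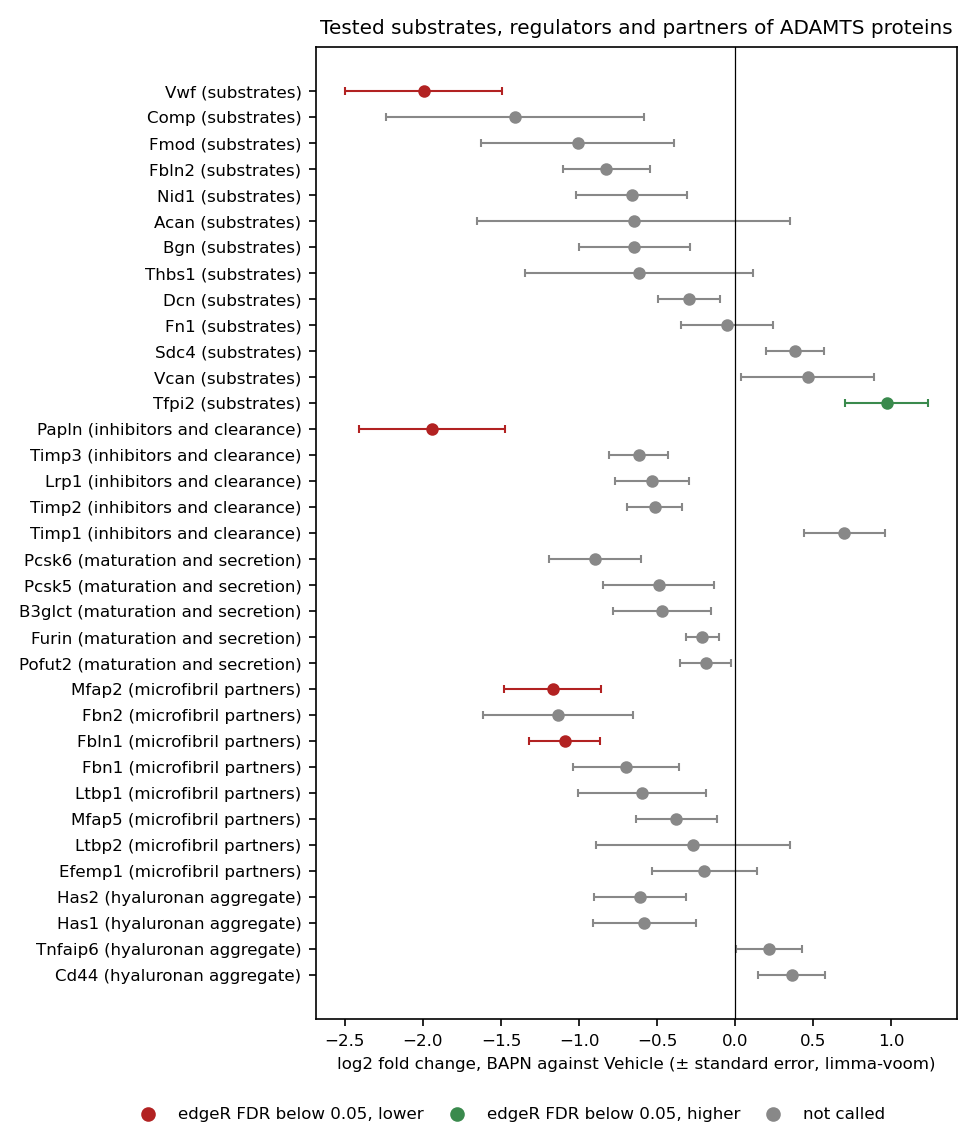
Each row is a tested gene of the 5 lists of substrates and partners, and the x axis gives the edgeR log2 fold change of BAPN against Vehicle with limma-voom standard errors as bars. Vwf, Papln, Mfap2 and Fbln1 are the genes with an FDR below 0.05 on the lower side and Tfpi2 on the higher side.

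Markers of cell types of the vein wall are given beside these results, to be read against the 9.25% of all tested genes that fell and the 7.5% that rose. Of 8 tested smooth muscle markers, 5 fell and 0 rose, and their summed level was 1709 to 4452 CPM in the BAPN rats and 3351 to 6322 CPM in the Vehicle rats. The groups did not overlap for 5 of the 8 markers, with the BAPN rats lower, beside 11.9% of all tested genes. The 5 calls became 6 with DESeq2, 2 with sex as a covariate and 0 among females alone. They became 2 without BAPN 3, BAPN 4 or Vehicle 3, and 3 without BAPN 1 or Vehicle 4. Of 8 fibroblast markers, 3 fell, 0 rose and 5 were not called, with sums of 3345 to 4868 and 3704 to 6827 CPM. The 3 fibroblast calls became 5 with DESeq2, 1 with sex as a covariate, 1 without BAPN 3, BAPN 4, Vehicle 1, Vehicle 3 or Vehicle 4, and 0 among females alone. Of 7 endothelial markers, 3 fell, including Vwf, and 0 rose, and the sums of 479 to 624 and 793 to 1532 CPM did not overlap. The 3 endothelial calls became 4 with DESeq2, 2 with sex as a covariate and 0 among females alone. They became 1 without BAPN 1, BAPN 2, BAPN 4 or Vehicle 1. No listed marker of these 3 cell types was at 0 in any library, and Pecam1 was not matched by name. Immune markers were counted as well. Of 7 T cell markers 2 rose, with sums of 346.5 to 443 and 289 to 496 CPM. Most of these sums was Cd4 (285 to 404 and 268 to 454 CPM, log2 fold change −0.07, not called), while the other 6 markers had fitted values above 0 and Cd2 and Cd8a, which rose, did not overlap. With sex as a covariate the edgeR FDR was 0.0271 for Cd2 and 0.0649 for Cd8a. Of 3 tested B cell and plasma cell markers 2 rose, with sums of 7.12 to 222 and 12.2 to 38.3 CPM. These sums were high in 3 BAPN rats, and the lowest of all was that of BAPN 4. The calls, of Mzb1 and Cd79b, did not hold in limma-voom (FDR = 0.53 and 0.235) or in edgeR with sex as a covariate (FDR = 0.225 and 0.186). Of 7 macrophage markers, 0 were called by edgeR, with 1 at an unadjusted p below 0.05 and 1 called by DESeq2 (sums of 2809 to 3612 and 1631 to 3315 CPM, with Marco at 0 in all libraries). The part of these cell types in the lower levels of Adamts5, Adamts10 and Adamts2 was not tested.

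**Figure D5:**
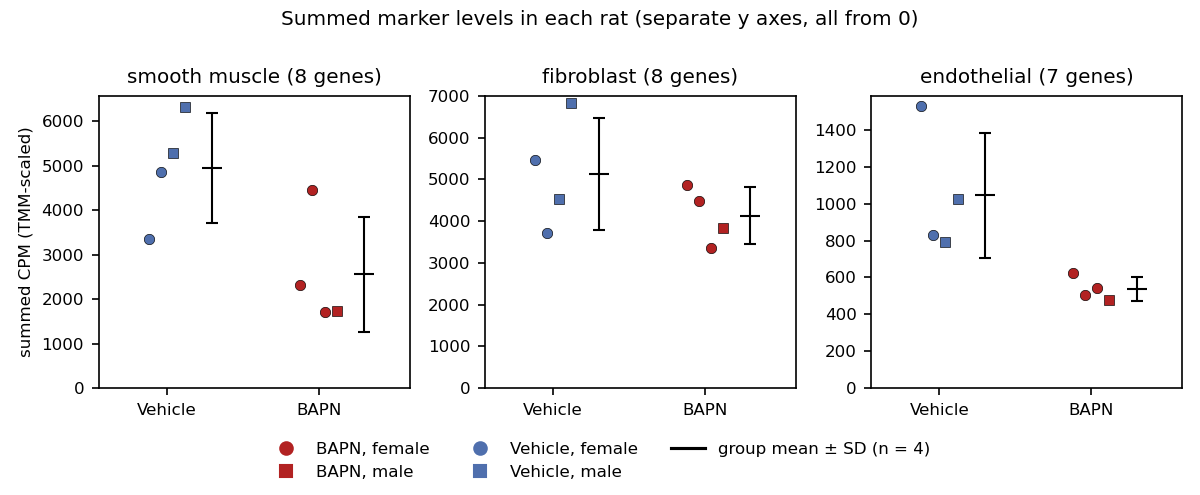
Each panel plots the summed CPM of a marker list on the y axis, which starts at 0, by treatment group on the x axis, with points for rats (circles female, squares male) and bars for the group mean ± SD (n = 4). The endothelial sums do not overlap between the groups (at most 624 CPM with BAPN and at least 793 CPM with Vehicle), while the smooth muscle and fibroblast sums do.

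Markers of surrounding tissue were also examined. Of 5 tested adipocyte markers 1 fell and 0 rose, with sums of 1080 to 2967 CPM in the BAPN rats and 462 to 1732 CPM in the Vehicle rats, while DESeq2 called 3. The adipocyte sums were mostly Fabp4, a lipid carrier (1014 to 2904 and 413 to 1572 CPM, not called), while the lipid droplet proteins Plin1 and Cidec and the adipokine Adipoq had log2 fold changes of −2.13, −1.43 and −1.61 (edgeR FDR = 0.0443, 0.0626 and 0.0647). The groups overlapped for Plin1, Cidec and Adipoq. The Plin1 call did not hold in limma-voom (FDR = 0.135), where Cidec and Adipoq had FDRs of 0.0733 and 0.14. With sex as a covariate the edgeR FDR was 0.0389 for Plin1, 0.0281 for Cidec and 0.0441 for Adipoq. Of 2 tested skeletal muscle markers 0 were called by edgeR, with 1 at an unadjusted p below 0.05 and 1 called by DESeq2 (sums of 16.1 to 30.0 and 17.1 to 69.7 CPM). Of 6 Schwann cell and nerve markers 0 were called by edgeR or DESeq2, with 1 at an unadjusted p below 0.05 (sums of 98.4 to 288 and 89.0 to 170 CPM). The 1 tested keratinocyte marker was not called by either tool, and its unadjusted p was not below 0.05 (sums of 4.47 to 15.4 and 7.27 to 15.6 CPM).

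For each called member, the 3 tested genes whose levels followed it most closely over the 8 rats were found, by the root mean square difference in log2 CPM after each gene was centered on its own mean. For Adamts10 they included Tbkbp1, an adaptor of the kinase TBK1 (0.127), and Osr1, a transcription factor of connective tissue (0.148). For Adamts5 they were Hipk3, a protein kinase (0.15), Sertad2, a transcriptional cofactor (0.154), and Zfp516, a zinc finger protein (0.162). These values describe likeness over 8 rats and include the difference between the groups.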

How the data were processed

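Outflow veins of 8 rats, 4 BAPN and 4 Vehicle, were grouped by the treatment in the labels. The authors prepared stranded, ribosomal RNA-depleted libraries, and the submitters' processing notes name bcl2fastq 2.17, Trim Galore and STAR. The counting tool, strand setting and genome build are not given in the sources used here. The deposited values are unnormalized whole-number counts per Ensembl gene, and reads shared by near-identical genes cannot be resolved. Totals were 19548203 to 52241007 counts per library.

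Genes with a base mean (DESeq2 size factors) of at least 100 were tested with edgeR 4.0.16 (TMM, quasi-likelihood F test, no covariate) in R 4.3.3. DESeq2 1.42.0 was an alternative, since the study used DESeq, with this filter on the base mean. Standard errors came from limma 3.58.1 (voom). The prior count of log2 CPM was 2. Permutation tests were exact and two-sided. Alternatives were other tools, scalings and filters, sex as a covariate, females alone, replicate number as a block, equal totals, and each rat left out. The steps were tested on simulated data. P-values measure the spread between rats.

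The members and lists were chosen with earlier results of these data known. The text names all members, the called genes of the rest of the family and of the partner lists, Vcan, Thbs1, Timp3, Fbn1 and Lrp1 whatever their value, and the 3 genes nearest to each called member, of which 1 is not reported here. Other family genes beside Adamts2, Timp1, Timp2, and single cell type markers were chosen for naming once their values had been seen. The comparison of which rat was lowest or highest in its group was also added then. No protein sequences were used here. Pecam1 and Trac had no match by name and were not used.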

Additional observations from a re-analysis of the deposited data

Results flagged for a closer look

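Dixon's criterion at the 95% level was applied to 86 groups of 4 rats, with BAPN and Vehicle apart. The groups covered the members, the other ADAMTS genes with counts, the named partner genes except Timp2, and the marker sums. Of the 86, 6 held a rat set apart from the other 3, for which chance gives about 1 in 20 groups. For Adamtsl2, Vehicle 2 had 0.0494 CPM, whereas its group otherwise spanned 2.34 to 2.58 CPM. For Adamts14, Vehicle 4 had 34.3 CPM, above the 22.7 to 24.7 CPM of its group. For Thbs1, Vehicle 4 had 2040 CPM, whereas the remaining Vehicle rats spanned 184 to 365 CPM. For Tfpi2, BAPN 4 had 10.4 CPM, below the 16.8 to 18.1 CPM of its group. For Timp3, Vehicle 1 had 416 CPM, above the 249 to 273 CPM of its group. For Fbln1, BAPN 1 had 203 CPM, above the 115 to 125 CPM of its group. The causes were not tested.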

How the results depend on the processing

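Of the 9 tested members, 2 were called with edgeR, 4 with DESeq2, 0 with sex as a covariate and 0 among females alone, and 0 to 4 when a rat was left out. Of the other 8 family genes 1 was called, 0 among females alone and 0 to 1 without a rat, and of the partner genes 5 were called, 11 with DESeq2, 0 among females alone and 0 to 8 without a rat. Over all tested genes the 1957 calls became 3202 with DESeq2, 930 with sex as a covariate, 89 among females alone and 397 to 2215 without a rat. Scaling by library totals alone gave 504 higher and 1161 lower genes, against 876 and 1081, and left the 2 members called. With the libraries thinned to equal totals, 1804 genes and 2 members were called. The interaction had 0 calls among the members under every alternative run with edgeR, and could not be fitted without BAPN 4. Signs turned among females for Adamts15 (0.34), Adamts8 (−0.11) and Adamts14 (0.090), and for Thbs1 among females (0.67), with the replicate number as a block (0.061) and in the fits without a rat (−0.94 to 0.80). Deviations of same-numbered rats had correlations of −0.265 to 0.269, and not every rat correlated best with its own number. This check showed no consistent pairing by replicate number but cannot exclude it, since differences between single rats could hide it. With the replicate number as a block 556 genes, 1 member (Adamts5), 0 other family genes and 1 partner gene (Fbln1) were called. The same fit called 3 smooth muscle, 2 fibroblast and 1 endothelial markers. The cause of these changes was not tested. With filterByExpr or no filter on low counts, 10 members and 12 other family genes were tested, of which 2 and 1 were called.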

Other observations

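Of the 13 other ADAMTS genes, 5 were too low to test. Adamts3, a procollagen N-proteinase, spanned 0.96 to 3.00 CPM in the BAPN group and 1.39 to 2.11 CPM in the Vehicle group. Adamts18 was at 0.124 to 1.26 and 0.547 to 2.01 CPM, Adamts19 at 1.48 to 2.54 and 1.48 to 4.20 CPM, and Adamts20 at 0 to 0.375 and 0 to 0.547 CPM. Adamts13, a protease made mainly in the liver, had no counts.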
